A study of Mus musculus with 4 samples.

Results

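Thymocytes of Rag1-deficient NOD mice at 6.5 weeks of age were compared with thymocytes of Rag1-deficient B6 mice at 7 weeks, and the transcripts whose strain difference was found at this later age but not at 4 weeks are described. Of 33114 named genes, 8634 had an RPKM (reads per kilobase of a gene, scaled to the depth of the library) of 5 or more in either later library. Among these, 154 genes were 2-fold or more apart at the later age and under 1.5-fold apart, in either direction, between the week 4 libraries. They are called late-only genes here, and 86 of them were higher and 68 lower in NOD. The ratio used for this choice was that of RPKM + 1 on the log2 scale, after the median over genes with an RPKM of 5 or more in either library of the pair was subtracted. The median removed was 0.28 at the later age and -0.07 at week 4. Adding 1 to each RPKM understates the difference of genes with low values, at week 4 as well.

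The study measured polyadenylated RNA by sequencing in sorted thymocytes of C57BL/6 (B6) and NOD mice, all of the genetic background Rag1-/-. It held 4 libraries, taken at ages 4 and 7 weeks from B6 and at ages 4 and 6.5 weeks from NOD. Each strain and age had 1 library, so no comparison has a replicate check, and no p-value is given. The labels give neither the surface markers of the sort nor whether a library came from 1 mouse or a pool, and the later ages of the strains differ, so strain and the age gap cannot be told apart.

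Rag1 is needed to assemble antigen receptor genes, and thymocytes without it stop as double negative cells, before CD4 and CD8 are expressed. Committed cells of this stage carry Il2ra and Ptcra and have shut down genes of multipotent progenitors such as Kit, Lmo2 and Lyl1. NOD is an inbred strain prone to autoimmune diabetes, and the series concerns how this checkpoint fails and leukaemia begins in Rag1-deficient NOD mice.

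The recovered depth ran from 16970000 to 24100000 reads, and the listed genes and regions held 67.0% and 52.6% of it in B6 (weeks 4 and 7) and 63.4% and 61.4% in NOD (weeks 4 and 6.5). The thymocyte label was borne out by the markers: 22 of 24 genes of double negative and committed cells had enough signal to be tested, and the summed RPKM of the list was 5501, 4410, 5477 and 4828 in that order of libraries. Below, 4 values in a row stand in this order too: younger B6, older B6, younger NOD and older NOD. Of the double positive list, Cd8a and Cd8b1 did not exceed an RPKM of 0.24 in any library, while Cd4 was at 1.3, 0.63, 1.46 and 2.78, a fold of 3.64 (2.61 to 5.26) at the later age, and was too low to be tested. Xist, the RNA of the inactive X chromosome, was at 100.1, 119.8, 20.2 and 77.9, and the Y-linked Ddx3y at 5.2, 9.85, 16.65 and 6.42, so that NOD week 4 had the lowest Xist and the highest Ddx3y. The part of the sex of the mice, which enters the week 4 limit through that library, was not tested, and of 142 late-only genes with a known chromosome 4 lie on X and 0 on Y. Rag1 RNA itself had an RPKM of 133, 108, 121 and 91.7, and since the deleted stretch is not named in the labels, this level checks nothing. In bulk RNA, fewer cells of a type and less RNA per cell cannot be told apart, for any gene below.

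At the later age 278 genes (3.22% of those tested) were 2-fold higher and 224 (2.59%) 2-fold lower in NOD. Without rescaling to the median these counts were 510 and 140. Of the higher genes, 187 were already at least 1.5-fold higher in NOD at week 4, 5 were at least 1.5-fold lower at week 4, and the remaining 86 (0.996% of those tested) were late-only. Of the lower genes, 154 had at least 1.5-fold of the same difference at week 4, 2 had the opposite difference, and 68 (0.788%) were late-only. Of the late-only genes, 22 higher and 6 lower had an RPKM under 5 in both week 4 libraries. At week 4, for comparison, 220 of 8863 genes (2.48%) were higher and 156 (1.76%) lower in NOD. The median log2 ratio of the late-only genes at the later age was 1.16 for those higher and -1.16 for those lower, a size that the 2-fold limit sets. Folds are given as the ratio of the RPKM values themselves, divided by the same median ratio (1.21). Their exact (Clopper-Pearson) 95% intervals come from the recovered read numbers. The late-only genes were chosen by their distance on these same reads, so an interval far from 1 describes the choice and adds no support to it. The intervals cover counting error alone, since amplified reads are not independent molecules, and they contain no variation between animals.

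**Figure D1:**
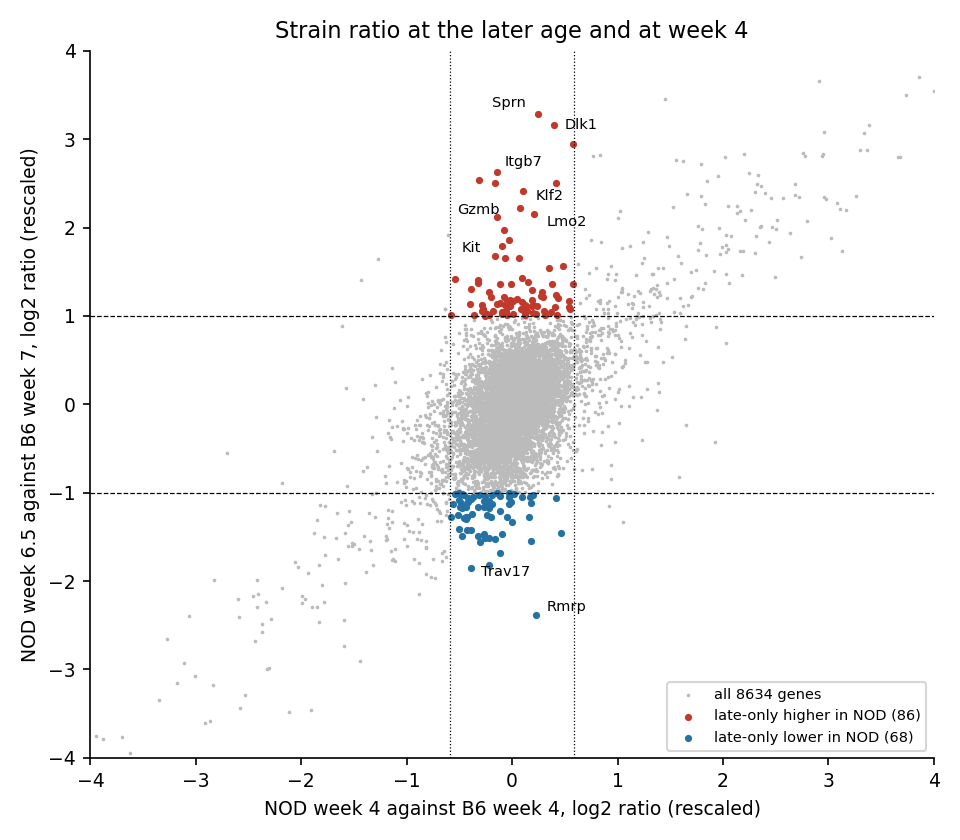
Each point is 1 of the 8634 tested genes, with its rescaled log2 ratio of NOD to B6 at week 4 on the horizontal axis and at the later age on the vertical axis; dashed lines mark 2-fold and dotted lines 1.5-fold, and 25 genes outside the axes are not drawn. The 86 late-only genes higher in NOD and the 68 lower in NOD fill the middle column above and below the dashed lines, while most other genes far from 0 lie along the diagonal.

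The limits cut through a continuous range of values. Just inside the 2-fold limit lay Nrm (log2 ratio 1.004) and Scrib (1.01) among higher genes and Gnpda2 (-1.01) and 4833418A01Rik (Dcaf17; -1.01) among lower ones. Just outside it lay Ng23 (Sapcd1; 0.98) and Adora2a (0.98), and 1700021C14Rik (Tsacc; -0.99) and Crbn (-0.99). At the 1.5-fold limit of week 4, LOC627695 (week 4 log2 ratio 0.58), Ctnna1 (0.54), Dcaf17 (-0.54) and Ifih1 (-0.50) were just inside. Hhex (-0.61), Nfe2 (-0.64), Tshz2 (-0.60) and Trim21 (-0.63) were just outside.

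The 4 libraries allow the later strain ratio to be read as a NOD age ratio (week 6.5 to week 4) and a B6 age ratio (week 7 to week 4), which share their libraries with it and are given as values only. Of the 86 higher genes, 22 were 2-fold higher in NOD at week 6.5 than at week 4, 17 were 2-fold lower in B6 at week 7 than at week 4, 0 did both, and 47 moved by less than 2-fold in each strain. The NOD age ratio was the larger of the pair in 35 genes and the B6 age ratio in 51. Of the 68 lower genes, 2 were 2-fold lower with age in NOD alone, 10 were 2-fold higher with age in B6 alone, 1 did both and 55 neither. The B6 ratio was the larger in 60 of them and the NOD ratio in 8. In more of the late-only genes, of either direction, it was thus the B6 week 7 library that stood further from its week 4 library.

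**Figure D2:**
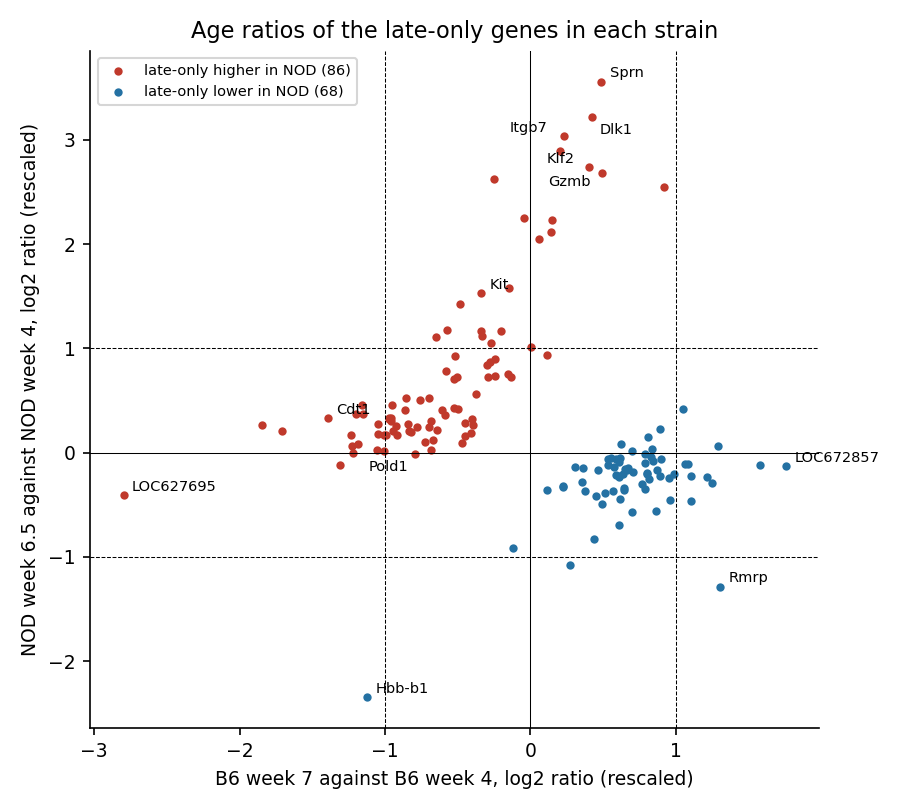
Rescaled log2 age ratios of the 154 late-only genes, B6 week 7 to week 4 on the horizontal axis and NOD week 6.5 to week 4 on the vertical axis; dashed lines mark 2-fold. Sprn, Dlk1, Itgb7, Klf2 and Gzmb lie high near the vertical axis, Cdt1 and Pold1 lie to the left near the horizontal axis, and most genes lower in NOD (blue) lie to the right of 0.

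The B6 week 7 library also stood apart by base composition. Tested genes were split into 5 groups of equal size by the GC content of their transcripts, and the median log2 ratio of NOD week 6.5 to B6 week 7 went from -0.43 in the group of lowest GC through -0.14, 0.04 and 0.20 to 0.32 in the highest. The B6 age ratio went the other way, from 0.37 to -0.33, while the NOD age ratio lay between -0.08 and 0.05 and the week 4 strain ratio between -0.06 and 0.06. The late-only genes followed this order. The group of lowest GC held 38 lower and 0 higher genes, and the group of highest GC held 2 and 36. Median GC was 54.6% in the 82 higher genes with a value, 41.6% in 58 lower genes and 49.7% in all 8320 tested genes with a value.

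After the trend with GC content and transcript length was taken out, 39 of 82 late-only genes higher in NOD and 12 of 58 lower ones were still 2-fold apart, counting genes with a GC value, and 0 changed sign. Among higher genes whose NOD age ratio was the larger, 26 of 35 were still 2-fold apart, with a median log2 ratio of 1.29. Among those whose B6 age ratio was the larger, 13 of 47 with a GC value were, with a median of 0.86. With B6 week 4 in place of B6 week 7, 23 of the 86 genes higher in NOD and 5 of the 68 lower ones were 2-fold apart from NOD week 6.5. These alternatives were chosen after seeing the data. The part of GC content in the results was not tested beyond these values and those given with the genes below.

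**Figure D3:**
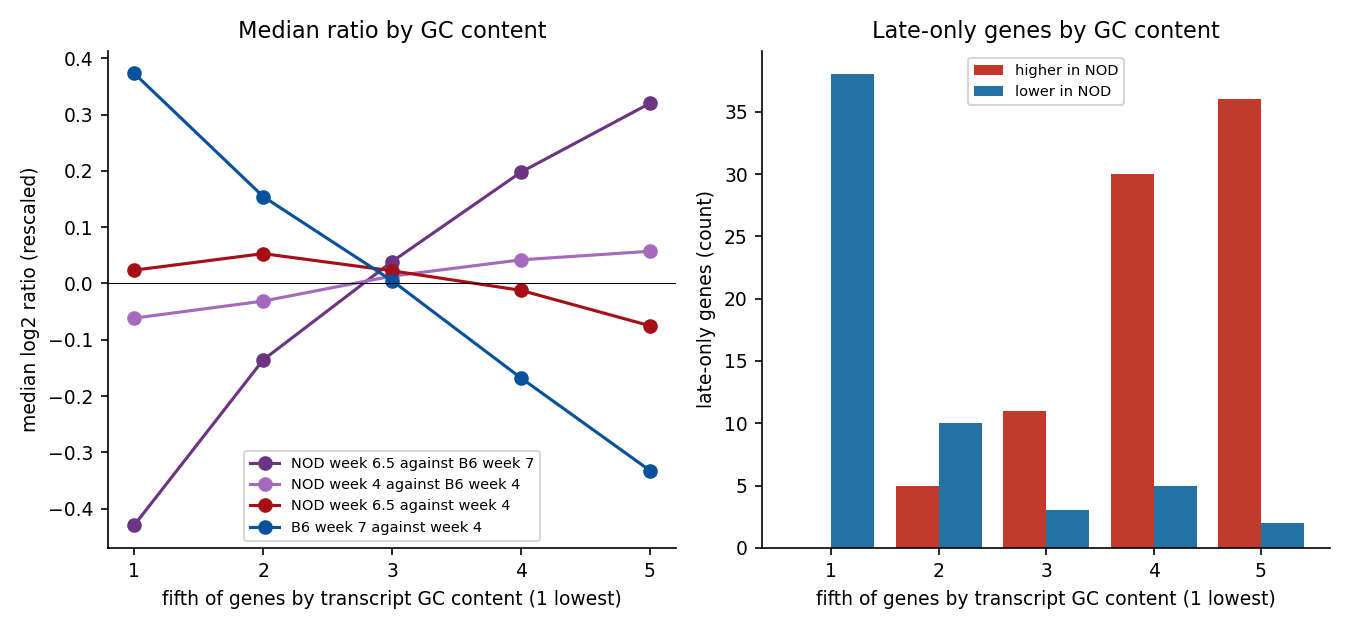
Left, median rescaled log2 ratio of 4 pairs of libraries in 5 groups of tested genes by transcript GC content (1 is lowest). Right, number of late-only genes in each group. The medians involving B6 week 7 run from -0.43 to 0.32 and from 0.37 to -0.33, the other pairs stay near 0, and the lowest group holds 38 lower and 0 higher genes.

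The largest ratios belonged to genes that were low in 3 libraries and present in NOD week 6.5. Sprn, which encodes the prion-related protein Shadoo, had an RPKM of 0.02 and 0.10 in B6 (weeks 4 and 7) and 0.15 and 12.03 in NOD (weeks 4 and 6.5). That is a fold of 99.3 at the later age (95% interval 45.9 to 237), from 7 reads in B6 and 915 in NOD. Dlk1, an imprinted gene for a transmembrane protein related to Notch ligands, was at 0, 0.03, 0.25 and 10.2 in the same order of libraries. Its fold was 280 with an interval of 51.9 to 11511, because B6 week 7 had 1 read. Both genes were near 0 outside a single library, and their NOD value at week 4 rested on few reads.

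The list of imprinted or ectopic genes that held these genes had 18 matched members, of which 6 were tested. Sprn and Dlk1 were the 2 that were higher (3.22% over all genes), and both were tested only through NOD week 6.5. Plagl1, an imprinted zinc finger transcription factor, was too low to be tested, at an RPKM of 0.08, 0.02, 0.61 and 1.26, and it too was highest in NOD week 6.5. H19, an imprinted non-coding RNA, was 2-fold lower in NOD at the later age, with an RPKM of 720, 364, 388 and 116. Gtl2 (Meg3), the imprinted non-coding neighbour of Dlk1, was at 0 in 3 libraries and at 0.06 in NOD week 6.5.

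In the list of homing receptors and Klf2, 4 of 12 tested genes were higher and 0 lower in NOD at the later age. Of the 4, 3 were late-only, beside 3.22% higher and 0.996% late-only higher over all genes. Like all the lists here, this one was chosen with earlier results of these data known, and it names Klf2. Its shares are thus no separate check on these genes. Of the later pair, only NOD week 6.5 brought the 3 late-only genes to the RPKM minimum, so the filter itself favours high shares here. The median log2 ratio of the 12 genes was 0.24. Without a filter, which also leaves the ratios unrescaled, 4 of 24 were higher, with a median of 0.13. Itgb7, the integrin beta 7 chain that takes lymphocytes to the gut, had an RPKM of 1.81 and 1.54 in B6 (weeks 4 and 7) and 1.41 and 18.0 in NOD (weeks 4 and 6.5), a fold of 9.66 (7.73 to 12.1) at the later age. Klf2, a transcription factor of resting and emigrating T cells, was at 0.83, 0.86, 0.87 and 10.98, a fold of 10.5 (7.22 to 16.1). The 3 other libraries did not exceed 1.81 for Itgb7 or 0.87 for Klf2. Itgb2, the leukocyte integrin beta 2 chain, was at 4.45, 2.83, 5.91 and 9.97, a fold of 2.91 (2.46 to 3.46). Itga6, integrin alpha 6, was higher in NOD at both ages and so was not late-only.

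Edg1 (S1pr1), a gene known to depend on Klf2 and the receptor that lets thymocytes leave, was not tested, since it did not exceed 0.42 in any library. The integrin alpha chains that pair with beta 7 and beta 2 lay near their B6 levels: Itga4 had a log2 ratio of -0.24 and Itgal of 0.31, and Itgae did not exceed 2.20.

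Genes of multipotent progenitors formed the other set that stood high in NOD week 6.5. Of 20 genes, 9 were tested, 5 of these were higher (3.22% over all genes) and 0 lower, and the median log2 ratio was 1.08 at the later age and -0.26 at week 4. Of the later pair, only NOD week 6.5 brought Kit, Lmo2, Hhex and Lyl1 to the RPKM minimum, so the filter itself favours a high share and median here. At an RPKM minimum of 1, 5 of 12 were higher, with a median of 0.87. Without a filter, which also leaves the ratios unrescaled, 7 of 20 were higher, with a median of 0.60. Kit, the stem cell factor receptor, had an RPKM of 7.62, 4.25, 6.33 and 19.4 in the younger and older B6 and the younger and older NOD library, a fold of 3.76 (3.40 to 4.16). Lmo2, a transcription scaffold of blood stem cells and an oncogene of T-cell leukaemia, was at 0.31, 0.11, 0.44 and 5.0. Its fold was 37.5 (14.4 to 139), from 4 reads in B6 week 7. Both genes were highest in NOD week 6.5, and NOD week 4 lay within or just above the range of the B6 libraries.

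The 3 further progenitor genes that were higher, the transcription factors Hhex, Lyl1 and Nfe2, failed the week 4 limit because they were lower in NOD than in B6 at that age. Hhex had an RPKM of 1.69, 0.64, 0.68 and 6.5, Lyl1 of 3.84, 1.47, 0.90 and 8.39, and Nfe2 of 19.5, 12.2, 11.5 and 33.0. Each was highest in NOD week 6.5. Tal1, Flt3, Meis1, Hoxa9 and Gata2, other stem cell genes of the list, did not exceed 0.19 in any library. The counts of 5 progenitor and 4 homing genes were the same after the GC and length trend was removed, and with B6 week 4 in place of B6 week 7. Both alternatives keep the NOD week 6.5 values through which most of these genes were tested, so the equal counts are not a separate check.

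Gzmb, the cytotoxic protease granzyme B, was at 0.41, 0.53, 0.41 and 7.67, a fold of 11.9 (7.19 to 21.1). It was the 1 higher gene among 4 tested (3.22% over all genes) of 29 genes of natural killer and innate lymphoid cells. It reached an RPKM of 5 only in NOD week 6.5. Of those 29 genes, 20 stayed under an RPKM of 1 in all libraries, and Gzmc and Klra1 were at 0 in all. Their summed RPKM was 166 and 147 in B6 (weeks 4 and 7) and 122 and 116 in NOD (weeks 4 and 6.5), most of it from Gzma and Nkg7, which lay 0.93 and 0.71 below 0 on the log2 scale at the later age. Perforin (Prf1) did not exceed 0.33 and Ncr1, the receptor NKp46, did not exceed 0.28. Of the genes too low to be tested, Cd244, a receptor of natural killer cells, was at 1.04, 0.59, 1.11 and 4.44, a fold of 6.21 (4.59 to 8.60). Zbtb16, the transcription factor PLZF of innate-like lymphocytes, was at 0.03, 0.06, 0.27 and 0.79, a fold of 10.9 (4.71 to 25.7). Both were highest in NOD week 6.5, so members of the list stood on both sides of 0.

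Several of the other large ratios belonged to genes for surface proteins. F2r, the thrombin receptor, had an RPKM of 3.84 and 3.13 in B6 (weeks 4 and 7) and 3.36 and 18.7 in NOD (weeks 4 and 6.5), a fold of 4.92 (4.27 to 5.69). Gpr97 (Adgrg3), an adhesion G-protein-coupled receptor, was at 3.98, 2.22, 2.80 and 21.6, a fold of 8.02 (6.62 to 9.82). In both genes NOD week 6.5 was high, and the 3 other libraries did not exceed 3.98. Cldn2, a tight junction claudin, was at 0.60, 0.42, 0.36 and 8.74. Mdga1, a membrane-anchored immunoglobulin family protein, was at 0.81, 0.35, 0.56 and 6.12. Cd7, an early T-lineage surface protein, was at 6.29 in NOD week 6.5 and did not exceed 1.80 in the other libraries, a fold of 4.15 (2.71 to 6.54). At week 4 the fold of Cd7 was 0.485 (0.237 to 0.942), from 14 reads in NOD and 30 in B6. It met the week 4 limit, at a log2 ratio of -0.54, only because 1 was added to each RPKM. These 3 genes were again high in a single library.

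**Figure D4:**
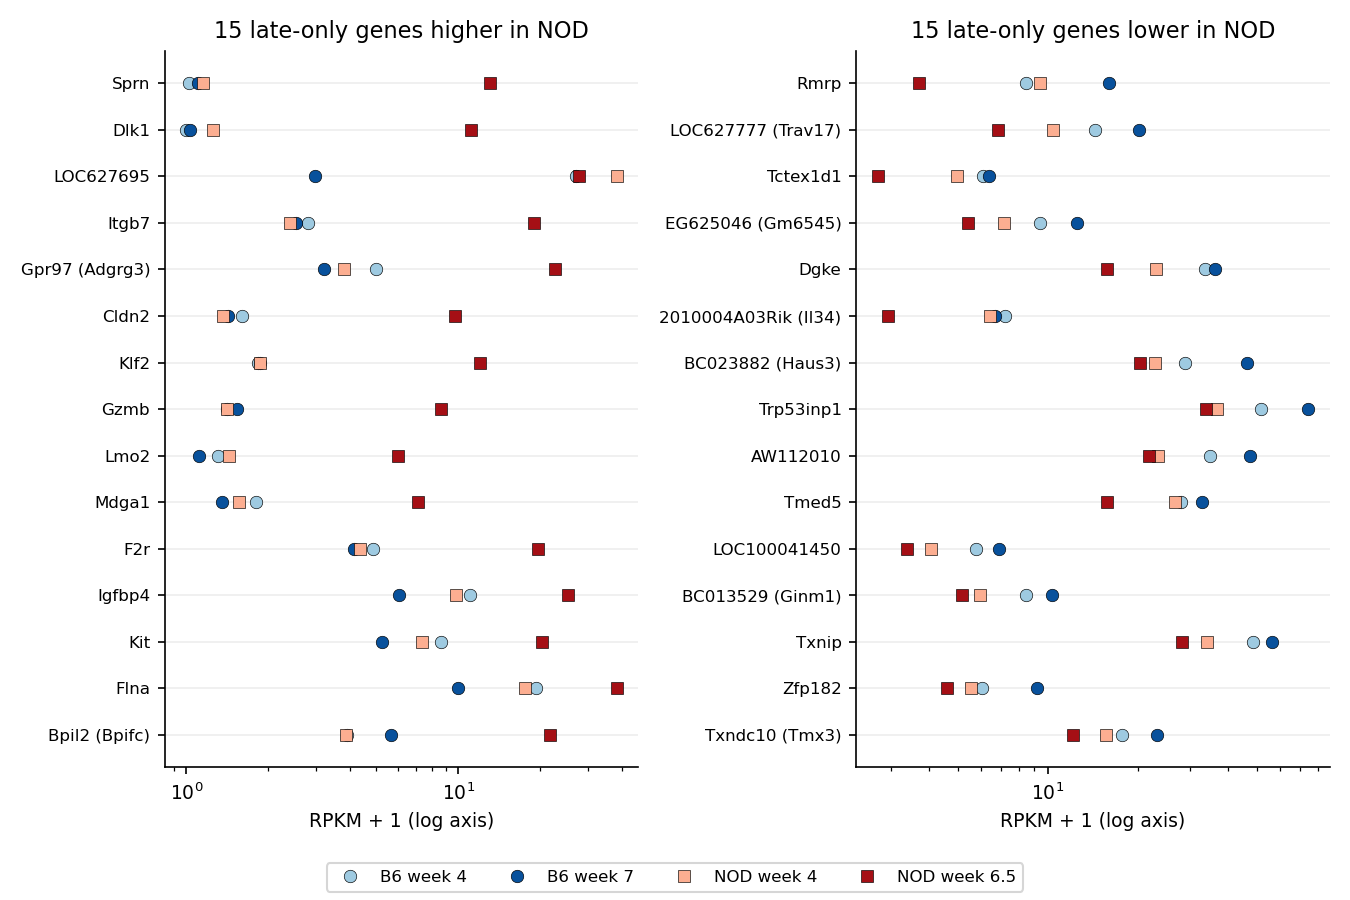
RPKM + 1 on a log axis in each of the 4 libraries for the 15 late-only genes with the largest ratios in each direction among those with under 10% shared reads. In the left panel NOD week 6.5 is the highest point for every gene except LOC627695. In the right panel NOD week 6.5 is the lowest point for every gene, and B6 week 7 is the highest for all except 2010004A03Rik (Il34).

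Igfbp4, which binds insulin-like growth factors, was at 10.01, 5.05, 8.82 and 24.4, and the actin crosslinker Flna at 18.4, 9.0, 16.6 and 37.2. Both had NOD week 6.5 as the highest and B6 week 7 as the lowest library. Bpil2 (Bpifc), of the lipid-binding BPI family, was at 2.89, 4.66, 2.86 and 20.6. Vim, the intermediate filament vimentin, was at 36.4, 21.9, 29.9 and 63.5, a fold of 2.39 (2.23 to 2.57). The signalling genes Rasgrp2, Rapgef2 and Arrb2 had log2 ratios of 1.36, 1.37 and 1.06. Vim and these 3 were picked after their values were seen. Arrb2 was under 2-fold, at 0.77, once the GC and length trend was removed.

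LOC627695, which has no current symbol in the table used here, had the opposite history. Its RPKM was 26.0 and 1.98 in B6 (weeks 4 and 7) and 37.2 and 26.8 in NOD (weeks 4 and 6.5). B6 week 7 alone was low, and the fold of 11.2 (8.59 to 14.6) came from that library.

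Zap70, the kinase bound to the T-cell receptor complex, was the other late-only gene of the double negative list. It had an RPKM of 10.3, 4.82, 10.5 and 18.0 in the younger and older B6 and the younger and older NOD library, a fold of 3.08 (2.66 to 3.58). Its later ratio combined a higher NOD value and a lower B6 value. Of the 22 tested genes of the list, Zap70 and Cd7 were higher (3.22% over all genes) and 0 were lower, with a median log2 ratio of 0.10. Of the later pair, only NOD week 6.5 brought Zap70 and Cd7 to an RPKM of 5. Il2ra, the CD25 surface marker of these cells, had a log2 ratio of 0.05, Ptcra, the pre-T-cell receptor chain, of 0.10, and Cd3d, a subunit of the receptor complex, of -0.72.

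Of the 38 lists, the one for DNA replication held the most late-only genes, a count that depends on the size of a list. Some smaller lists held a larger share, among them the homing list (3 of 12 tested) and the progenitor list (2 of 9). Of 42 tested genes of the G1/S list, 7 were higher, all late-only, and 0 were lower. Over all genes 3.22% were higher and 0.996% late-only higher. In all, 36 lay above 0 and 6 below, and the median log2 ratio was 0.60 at the later age and -0.19 at week 4. Cdt1, which licenses replication origins, had an RPKM of 32.8 and 8.92 in B6 (weeks 4 and 7) and 23.5 and 28.7 in NOD (weeks 4 and 6.5), a fold of 2.66 (2.38 to 2.97). Mcm5, a subunit of the replicative helicase, was at 69.5, 25.2, 55.1 and 64.1. Pold1, the catalytic subunit of DNA polymerase delta, was at 41.1, 14.6, 41.8 and 40.9. In each of these genes B6 week 7 was the low library, and the 3 others lay within 1.5-fold of each other.

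The 4 further higher genes of the list were the helicase subunit Mcm3 (log2 ratio 1.02), the DNA ligase Lig1 (1.14), the polymerase Pole (1.06) and the uracil glycosylase Ung (1.01). The summed RPKM of the 45 genes of the list was 1901 and 1006 in B6 (weeks 4 and 7) and 1577 and 1719 in NOD (weeks 4 and 6.5). The median of the list was 0.22 for the NOD age ratio and -0.55 for the B6 age ratio. With the GC and length trend removed, 1 of the 42 genes was 2-fold higher and the median was 0.52. With B6 week 4 in place of B6 week 7, 0 of 43 genes were, and the median was 0.03. The higher genes of the list, all late-only, were chosen as under 1.5-fold apart at week 4. That choice favours a smaller ratio to B6 week 4, and the cause of the difference was not tested.

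The promoters of 3 late-only genes are shown: the G1/S gene Mcm5, the DNA methyltransferase gene Dnmt1 and the mitotic gene Cdc20. Their B6 week 7 values were low together, and they were picked from genes that held a match in the bases shown. E2F factors, which drive S-phase genes, and the cell cycle homology region, bound by the DREAM complex, are known for such promoters. Among late-only genes of the G1/S list only Mcm5 held an upstream E2F match. Among those of the G2/M list only Cdc20 held an upstream homology region. Upstream E2F matches were also found in Lsm5 and Phip, which were late-only lower genes. Each line holds the 250 bases before the RefSeq start, 5′ to 3′ on the gene's strand, from assembly GRCm38.p6. Capitals mark a match on either strand to an E2F motif (TTTCCCGC, TTTGGCGC, TTTCGCGC or TTTGCCGC) in the first pair and to TTTGAA, the cell cycle homology region, in the last. In Mcm5 the capitals are 2 matches that overlap, 1 on each strand.
Mcm5, chr8:75109259-75109508, plus strand: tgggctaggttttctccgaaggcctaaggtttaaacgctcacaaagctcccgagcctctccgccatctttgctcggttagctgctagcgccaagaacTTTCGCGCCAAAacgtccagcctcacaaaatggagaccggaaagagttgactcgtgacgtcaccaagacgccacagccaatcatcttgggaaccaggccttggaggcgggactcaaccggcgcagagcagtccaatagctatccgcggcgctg
Dnmt1, chr9:20952624-20952873, minus strand: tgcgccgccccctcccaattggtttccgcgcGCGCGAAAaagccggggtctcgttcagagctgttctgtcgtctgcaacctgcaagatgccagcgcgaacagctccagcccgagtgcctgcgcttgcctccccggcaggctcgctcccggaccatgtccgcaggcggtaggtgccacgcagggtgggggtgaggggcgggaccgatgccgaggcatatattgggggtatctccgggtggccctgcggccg
Cdc20, chr4:118437344-118437593, minus strand: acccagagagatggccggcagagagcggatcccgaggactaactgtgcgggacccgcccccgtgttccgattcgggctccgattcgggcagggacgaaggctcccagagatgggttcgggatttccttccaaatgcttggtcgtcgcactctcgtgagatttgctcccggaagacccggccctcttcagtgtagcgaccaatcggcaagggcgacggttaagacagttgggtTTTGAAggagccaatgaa

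Over the 300 bases from 250 before to 50 after the start, an E2F motif was found in 2.60% of 27025 RefSeq promoters and in 5.6% of those of 6291 tested genes. It was found in 14.1% (9 of 64) of the late-only higher genes with a promoter in the table. Among those whose B6 age ratio was the larger it was in 21.1% (8 of 38), and among those whose NOD age ratio was the larger in 3.85% (1 of 26). The 1 gene was Kit. In the G1/S list an E2F motif was in 35.1% (13 of 37). These sets were not matched for GC content, which was higher in the late-only higher genes (median 54.6%) than in tested genes (49.7%). The part of GC content in the shares was not tested. The cell cycle homology region was in 14.2% of tested promoters and 18.8% of the late-only higher ones. A CCAAT box (CCAAT) was in 43.2% and 42.2%, and an E-box (CACGTG) in 12.7% and 9.38%. A match describes the letters of the sequence and is not a measured site of binding.

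Mitotic genes were in the same position as Cdc20, whose promoter is printed above. Of 32 tested genes of the G2/M list, 3 were higher (3.22% over all genes), all late-only, and 0 lower, with a median log2 ratio of 0.32 at the later age and -0.28 at week 4. Cdc20, the activator of the anaphase-promoting complex, had an RPKM of 29.9, 9.19, 28.0 and 26.9 in the younger and older B6 and the younger and older NOD library. Aurkb, the mitotic kinase Aurora B, was at 20.0, 5.87, 14.5 and 15.8. Cdc25b, the phosphatase that activates cyclin-dependent kinase, was at 14.5, 6.05, 11.99 and 16.7. B6 week 7 was again the single low library. With the GC and length trend removed, or with B6 week 4 in place of B6 week 7, 0 genes of this list were 2-fold higher.

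Further cell cycle genes among the late-only ones, which were singled out after their values were seen, had log2 ratios near 1. They were the separase gene Espl1 (1.04), the inhibitory kinase Pkmyt1 (1.17), the transcription factor Mybl2 (1.11, with 39% shared reads), the spindle protein Tacc3 (1.01, with 42% shared reads) and the replication factor Chtf18 (1.08). All 5 were under 2-fold, between 0.71 and 0.84, once the GC and length trend was removed, and with B6 week 4 in place of B6 week 7 Pkmyt1 changed sign, to -0.12. Dnmt1, the maintenance DNA methyltransferase, had an RPKM of 79.0 and 30.9 in B6 (weeks 4 and 7) and 74.0 and 82.5 in NOD (weeks 4 and 6.5), a fold of 2.20 (2.12 to 2.29). It was the 1 higher gene of 32 tested chromatin regulators, a share near the 3.22% over all genes, and its log2 ratio was 0.86 with the trend removed. Ccnd3, the D-type cyclin of pre-T-cell receptor signalling, differed from these in its NOD values: it was at 58.9, 27.4, 71.6 and 99.4, with 37% shared reads.

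The 5 tubulin genes among the late-only ones, chosen after their values were seen, were all higher. No list of tubulin genes was made, so these 5 give no share for the family. Tubb5, the tubulin beta 5 chain, was at 344, 139, 338 and 388, a fold of 2.30 (2.24 to 2.36). Tuba1b was at 344, 80.2, 320 and 355 and Tuba1c at 41.1, 13.6, 33.4 and 41.8, both with 95% shared reads, and these near-identical copies cannot be told apart. Tubb2c (Tubb4b) had a log2 ratio of 1.16 with 78% shared reads, and Tubg1, the centrosomal gamma tubulin, of 1.05. For each of the 5 genes B6 week 7 had the lowest value and the 3 other libraries lay close together. Tuba1c (0.96), Tubb4b (0.92) and Tubg1 (0.74) were under 2-fold after removal of the GC and length trend.

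Genes of amino acid supply gave 3 higher (3.22% over all genes) and 0 lower of 22 tested, all 3 late-only, with a median log2 ratio of 0.33 at the later age and -0.04 at week 4. Slc7a5 and Slc3a2, the chains of a transporter of large neutral amino acids, had RPKM values of 15.3, 6.05, 14.6 and 16.4, and of 15.1, 7.77, 15.6 and 20.4. Shmt2, the mitochondrial enzyme of folate-linked carbon supply, was at 45.3, 17.9, 41.6 and 45.1. All 3 log2 ratios lay between 1.01 and 1.02, just inside the 2-fold limit. With the GC and length trend removed, or with B6 week 4 in place of B6 week 7, 0 genes of the list were 2-fold higher.

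Fasn, the fatty acid synthase, was the 1 higher gene of 24 tested for sterol and fatty acid synthesis (3.22% over all genes), at 21.6, 9.92, 28.1 and 29.4. Cad, the first enzyme of pyrimidine synthesis, was at 20.6, 7.29, 22.4 and 21.7, a fold of 2.46 (2.30 to 2.63), and was singled out after its values were seen. Fasn had a log2 ratio of 0.92 and Cad of 0.85, both under 2-fold, when the GC and length trend was removed. In glycolysis 18 genes were tested, of which 2 were higher and 1 lower, beside 3.22% and 2.59% over all genes. Of the 18, 0 were late-only, with a median log2 ratio of 0.48 at the later age and -0.07 at week 4. Oxidative phosphorylation genes had 0 of 38 apart in either direction and a median of 0.03.

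**Figure D5:**
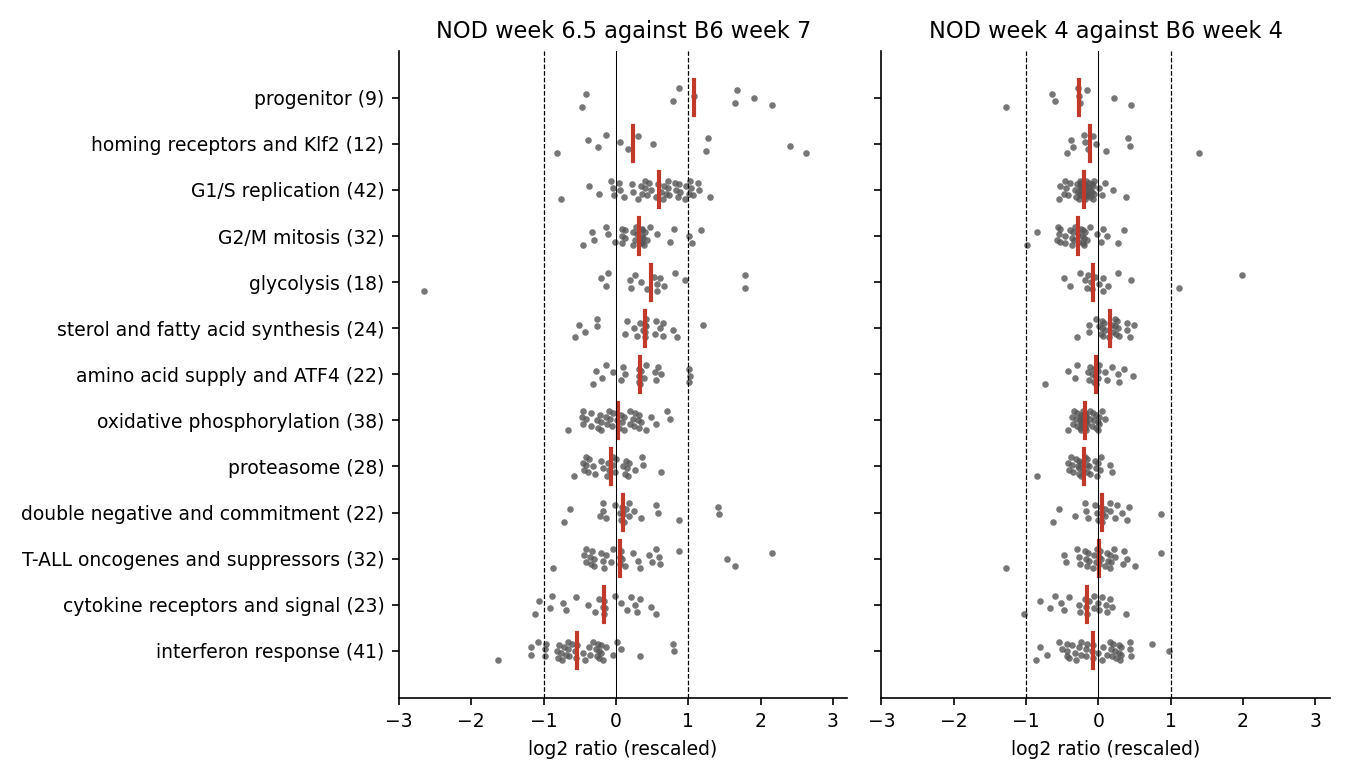
Rescaled log2 ratio of every tested gene of 13 lists (grey points, number tested in brackets) and the list median (red bar), at the later age (left) and at week 4 (right); dashed lines mark 2-fold. Progenitor genes have a median of 1.08 at the later age and -0.26 at week 4, G1/S genes 0.60 and -0.19, and interferon response genes -0.54 and -0.07.

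Among genes lower in NOD the lowest log2 ratio was -2.39, smaller in size than the highest of 3.29 among higher genes. It belonged to Rmrp, the RNA component of the RNase MRP complex, with an RPKM of 7.46 and 15.1 in B6 (weeks 4 and 7) and 8.42 and 2.72 in NOD (weeks 4 and 6.5). NOD held 0.149 times the B6 level at the later age (interval 0.0842 to 0.249), from 18 reads against 88. B6 week 7 was high and NOD week 6.5 low, and the week 4 libraries lay between them. Rmrp RNA is not known as a polyadenylated transcript, and these libraries were selected for poly(A) RNA.

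LOC627777 (Trav17), a T-cell receptor alpha variable segment, was at 13.4, 19.2, 9.42 and 5.80, a fold of 0.249 (0.223 to 0.279). Tcrg-V4 (Trgv4), a gamma variable segment, was at 433, 497, 287 and 251, with 52% shared reads. It was picked after its values were seen, and its log2 ratio of -1.26 was -0.86 once that trend with GC and length was removed. Both segments were highest in B6 week 7 and lowest in NOD week 6.5. Such segments are joined by the Rag recombinase, whose Rag1 subunit is deficient in all 4 libraries by label.

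Interferon response genes leaned lower together. Of 41 tested, 4 were lower and 0 higher, 2 of them late-only, beside 2.59% lower and 0.788% late-only lower over all genes, and 36 lay below 0 and 5 above. The median log2 ratio was -0.54 at the later age and -0.07 at week 4, beside 0 over all genes. Ifi47, an interferon-inducible GTPase, had an RPKM of 58.4 and 68.7 in B6 (weeks 4 and 7) and 40.7 and 36.6 in NOD (weeks 4 and 6.5), a fold of 0.440 (0.412 to 0.469). Ifih1, the sensor of double-stranded RNA MDA5, was at 10.9, 9.67, 6.96 and 5.10, a fold of 0.435 (0.387 to 0.488). Ifih1 was under 2-fold, at a log2 ratio of -0.81, once the GC and length trend was removed. For both genes the NOD libraries lay below the B6 libraries at each age, and at week 4 the gap was under the limit.

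Gbp2 and Tgtp (Tgtp1; 95% shared reads), the other 2 lower genes, were more than 1.5-fold lower in NOD at week 4 as well. Of the well-known antiviral genes, Irf7 had a log2 ratio of 0.01 at the later age and Isg15, listed as LOC100038882 with 32% shared reads, of -0.26. Mx2 and Ifi27 (Ifi27l2a) had the largest positive values, 0.79 and 0.81. The core of the interferon-stimulated response element was in 52.5% of the promoters of the list and in 3.74% of those of all tested genes, against 5.56% (2 of 36) for the late-only lower genes and 0 of 64 for the higher ones. The count of 4 lower genes was also 4 with the GC and length trend removed, though without Ifih1, with a median of -0.44, and was 0 with B6 week 4 in place of B6 week 7, with a median of -0.25. Without rescaling to the median it was 1, and the median was -0.26.

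Among other late-only genes lower in NOD were Trp53inp1, Txnip and Dgke, which were put side by side after their values were seen. Trp53inp1, a p53-induced promoter of cell death, had an RPKM of 50.9, 73.4, 35.7 and 32.8 in the younger and older B6 and the younger and older NOD library, a fold of 0.368 (0.355 to 0.382). It was the 1 lower gene of 9 tested p53 targets (2.59% over all genes), and the median of these targets was -0.21. Txnip, which restrains thioredoxin and glucose uptake, was at 47.6, 55.3, 33.0 and 27.2, a fold of 0.406 (0.388 to 0.425). Dgke, a diacylglycerol kinase, was at 32.6, 35.4, 21.97 and 14.7, a fold of 0.344 (0.325 to 0.363). In these 3 genes both B6 libraries lay above both NOD libraries. Of the 3, Trp53inp1 was no longer 2-fold lower with the GC and length trend removed, at a log2 ratio of -0.92.

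Single genes of lymphocyte signalling were also among the late-only lower genes, but the list of T-cell receptor signalling did not lean lower. Of its 28 tested genes, 1 was higher (Zap70) and 2 were lower (Themis and Nfkb2), beside 3.22% and 2.59% over all genes. In all, 17 lay above 0 and 11 below, with a median log2 ratio of 0.13. Nfkb2 was already lower at week 4, with a log2 ratio of -2.41. E430004N04Rik (Themis), which is needed for thymocyte selection, was at 57.7, 82.9, 58.7 and 48.0, with a log2 ratio of -1.05 at the later age and 0.10 at week 4. The interleukin-21 receptor Il21r was at 10.8, 10.6, 7.51 and 5.73, and Trat1, an adaptor of the T-cell receptor complex picked after its values were seen, at 39.7, 55.2, 32.2 and 29.1. For Themis and Trat1 the B6 week 7 library was the highest, while the B6 libraries were alike for Il21r. The cytokine gene 2010004A03Rik (Il34) was at 6.18, 5.67, 5.39 and 1.92, a fold of 0.279 (0.214 to 0.361), with NOD week 6.5 alone apart. AW112010, an interferon-inducible transcript of lymphocytes, was at 33.8, 46.6, 22.4 and 20.8. Themis (-0.55), Trat1 (-0.72) and AW112010 (-0.78) were under 2-fold after removal of the GC and length trend.

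Tacstd1 (Epcam), an epithelial adhesion molecule, was at 34.2, 23.99, 26.8 and 13.2, a fold of 0.454 (0.411 to 0.501), and NOD week 6.5 was the low library. It was in the list of thymic stroma, of whose 25 genes 20 were under an RPKM of 1 in all libraries, with Krt14, Foxn1, Ccl21b (Ccl21a) and Lum at 0. The summed RPKM of that list was 75.7 and 54.0 in B6 (weeks 4 and 7) and 50.3 and 49.99 in NOD (weeks 4 and 6.5). Hbb-b1, a beta globin gene with 92% shared reads, was at 17.1, 5.39, 13.4 and 1.72. The erythroid list summed to 64.7, 34.3, 66.0 and 33.8 in the same order, with Hba-a1, an alpha globin gene with 100% shared reads, at 23.4, 5.92, 29.6 and 4.12. Globin transcripts were thus higher at week 4 than later in both strains, and the part of red cells carried with the sort was not tested.

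Shared reads were more common among the lower genes. Under 10% of reads mapped to more than 1 place in 38 of the 68 lower genes and in 67 of the 86 higher ones, and 50% or more did in 19 and 12. Over all tested genes, 6186 of 8634 had under 10% shared reads. The abundant LOC672857, with 49% shared reads, was at 914 and 2382 in B6 (weeks 4 and 7) and 1196 and 1051 in NOD (weeks 4 and 6.5). Lars2, a mitochondrial leucine-tRNA ligase gene with 86% shared reads, was at 401, 755, 308 and 309. In both, which were picked after their values were seen, B6 week 7 was the high library. With B6 week 4 in its place LOC672857 changed sign, from -1.46 to 0.32. With such shares the reads cannot be assigned to 1 copy, so these values are uncertain.

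In the remaining lists of other cell types 0 genes were late-only. The myeloid list had 1 tested gene of 26, Lyzs (Lyz2), and summed to an RPKM between 31.5 and 38.8 in the 4 libraries, with Ela2 (Elane) and Ms4a3 at 0. The B cell list had 4 tested genes of 18, among them Dntt and Rag2, which thymocytes also express. It summed to 901, 838, 718 and 654, with Ms4a1 and Pax5 at 0. Of 977 distinct genes in all 38 lists, 649 were tested, and these held 27 of the 86 higher and 7 of the 68 lower late-only genes.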

How the data were processed

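Polyadenylated RNA of sorted Rag1-/- thymocytes was sequenced in 4 libraries, 1 per strain and age. The authors deposited, per the file headers, an RPKM value and a length for each gene and the fraction of its reads that map to more than 1 place, called shared reads here. Bowtie 0.12.1 and build mm9 are named in the submitters' processing notes. The counting program is not given in the sources used here, and no strand-specific step is named, so genes and antisense partners cannot be told apart.

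Genes were joined by identifier and rows without a gene name (105 to 168 per library) were left out. Log2((RPKM + 1) ratios) were rescaled to the median over genes with an RPKM of 5 or more in either library. Depth was recovered from the steps between RPKM values of genes of at most 0.6 kilobases, where 98.8% to 100% of values came within 0.1 of whole reads (20% by chance). GC content came from GENCODE transcripts, and promoters and current symbols (27627 genes) from RefSeq GRCm38.p6. Of 1059 list entries, 1038 were matched, 5 through older symbols. Python 3.11.15, numpy 2.4.6, pandas 2.3.3, scipy 1.17.1 and statsmodels 0.14.6 were used, and the ratio calculation was tested on simulated data. No test of significance was made, because each group has 1 library.

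The members and the gene lists were chosen with earlier results of these data known. Named genes came from the 15 late-only genes with the largest ratio in each direction among those with under 10% shared reads in all libraries. Others were list members that were 2-fold apart, up to 6 a list, though all 7 of the G1/S list are given. List members named for their level and genes at the limits were added. All remaining named genes, untested list members included, were chosen after their values were seen. Of the 15 late-only lower genes, Tctex1d1, EG625046 (Gm6545), BC023882 (Haus3), Tmed5, LOC100041450, BC013529 (Ginm1), Zfp182 and Txndc10 (Tmx3) are drawn but not described in the text. Tried as alternatives were other pseudocounts, scalings, RPKM minimums, shared-read and week 4 limits, removal of the trend with GC content and length, and B6 week 4 in place of B6 week 7. Values of some list genes are not reported here.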

Additional observations from a re-analysis of the deposited data

Results flagged for a closer look

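A few genes and lists had opposite strain ratios at the ages, at least 1.5-fold one way at week 4 and 2-fold the other way later, or, for lists, medians of opposite sign. None of these differences between ages was tested, since each group has 1 library. Hhex had a log2 ratio of 1.92 at the later age and -0.61 at week 4, Lyl1 of 1.65 and -1.27, and Nfe2 of 1.08 and -0.64, and the progenitor list that holds them had medians of 1.08 and -0.26. Tmsb10, with 87% shared reads, had 1.08 at the later age, and EG435996 (Gm5735), with 100% shared reads, had 1.41. The unnamed loci LOC100043601 and LOC100040862 were lower in NOD at the later age, with -1.15 and -1.33, and higher at week 4. The G2/M mitosis list had medians of 0.32 and -0.28. The list of ectopic or imprinted genes had -0.72 and 0.26; it includes Xist and the Y-linked Ddx3y, which were at their lowest and their highest in NOD week 4, respectively, and the part of the sex of the mice was not tested.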

How the results depend on the processing

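No paired analysis was possible because each strain and age has 1 library, and for the same reason no library could be left out. The 86 late-only higher genes became 255 without rescaling, 318 without a filter on low values (where the median ratio is 0, so rescaling does nothing), 51 at an RPKM minimum of 10, 53 among genes with under 10% shared reads, 42 with the GC and length trend removed and 34 with B6 week 4 in place of B6 week 7. The 68 lower genes became 21 without rescaling, 34 without a filter, 119 at a pseudocount of 0.1, 110 at an RPKM minimum of 1, 36 with a narrower and 118 with a wider (2-fold) limit at week 4, 25 with the GC and length trend removed and 13 with B6 week 4. All genes 2-fold higher at the later age numbered 278, and 510 without rescaling, 712 without a filter, 178 at a minimum of 10 and 129 with under 10% shared reads. Those lower numbered 224, and 140 without rescaling, 353 at a minimum of 1, 127 with under 10% shared reads, 145 with the trend removed and 149 with B6 week 4. The number of listed genes apart in either direction was 75, 118 without a filter and 43 with under 10% shared reads. With B6 week 4 in place of B6 week 7, 7 late-only genes higher in NOD and 4 lower ones changed sign, among them Cdc20, Aurkb, Cdt1 and Pkmyt1, to -0.029, -0.20, -0.066 and -0.12, and LOC672857, to 0.32. The cause of these changes was not tested. Of the remaining values, 36 counts over all genes and 45 within lists stayed within 1.5 times. With TMM scaling 83 of the 86 and 67 of the 68 genes were called again.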
